A study of Homo sapiens with 8 samples.

Results

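Histone H3 lysine 27 acetylation (H3K27ac), a mark of active promoters and enhancers, was described at 10 genes that encode histone methyltransferases, Polycomb subunits and a demethylase: KMT2A, KMT2B, KMT2C, KMT2D, SETD1A, SETD1B, EZH2, EED, SUZ12 and KDM6B. The genes were listed by name, and every deposited peak within a gene body (GENCODE, hg38) or 20 kb either side of it was counted. Peaks that overlapped across the 6 lists were merged, which gave 117 intervals at these loci of 143733 in all. Of the 117, 18 overlapped a window of 1 kb either side of a start of the gene itself, 12 did so only for a start of a neighbouring gene, and 87 did neither. The lists came from H3K27ac ChIP-seq of 3 WT libraries and 3 libraries labelled CBP KO, here CREBBP-KO. All were made from HCEC-1CT, a colonic epithelial line from a healthy adult that was immortalised with CDK4 and telomerase. The methods give the cells as parental against monoclonal CREBBP-KO, made by transfecting guide RNAs into cells with doxycycline-inducible Cas9, and elsewhere describe pooling of several clones for each target. A difference between the genotypes therefore cannot be told apart from a difference between the clones used. Peak lists hold no measure of CREBBP transcript or protein, so the labels were not checked against the targeted gene.

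CREBBP (CBP) and its paralogue EP300 are acetyltransferases that place acetyl groups on lysine 27 of histone H3. The 10 genes encode enzymes that act on the same histone tail. The KMT2 and SETD1 proteins are the catalytic subunits of COMPASS complexes, which methylate lysine 4: SETD1A and SETD1B place much of the trimethylation at active promoters, KMT2A and KMT2B act at promoters of selected genes, and KMT2C and KMT2D place monomethylation at enhancers. EZH2, EED and SUZ12 form the core of Polycomb repressive complex 2 (PRC2), which methylates lysine 27 and so occupies the residue that CREBBP acetylates, and KDM6B removes that methylation.

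The WT lists held 86163 to 93567 peaks, the CREBBP-KO lists 99008 to 111697, and none held read counts, so the depth behind each list is unknown. Peak height was read as the deposited fold enrichment over local background, and as the percentile of that fold among all peaks of the same library, because the lists differed in length. All 6 colonic markers examined (CDX1, CDX2, VIL1, CDH17, LGR5 and HNF4A) lacked a promoter peak in every library, as did CDH1, KRT19 and CLDN4 of the 6 epithelial markers. EPCAM and KRT8 had a promoter peak in all 6, and epithelial folds lay between 2.09 and 6.82. The 5 mesenchymal markers had promoter peaks in all 6 libraries with folds of 10.6 to 37.3. Their summed fold was 81.1 to 91.5 in the WT libraries, against 118 to 139 for CREBBP-KO. The fold was greater in CREBBP-KO at most promoters, with a median ratio of 1.23. In the limma fit of promoter ranks described below, ZEB1 and COL1A1 were higher (shifts 0.86 and 0.87). VIM, SNAI2 and PDGFRB did not pass (adjusted p = 0.770, 0.115 and 0.390). Of the other markers, PTPRC, CD3E and CDH5 had no promoter peak, and PECAM1 had a peak in the CREBBP-KO libraries alone, at folds of 2.80 to 3.60. The part of these marker differences in the results at the 10 genes was not tested.

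RefSeq promoter sequences (GRCh38.p14) matched 9 of the 10 genes, SETD1B not among them, and equalled hg38 at the stated coordinates in all 9. The 250 bases before the start are given for the gene with the largest promoter shift (SETD1A), for those with the fewest and the most CpG dinucleotides (EED and KMT2C), for KMT2D, whose shift had the opposite sign and did not pass the test, and for EZH2. Capitals mark CpG dinucleotides, the sites of promoter DNA methylation, and each sequence runs 5′ to 3′ on the strand of the gene.
SETD1A, chr16:30957504-30957753, plus strand: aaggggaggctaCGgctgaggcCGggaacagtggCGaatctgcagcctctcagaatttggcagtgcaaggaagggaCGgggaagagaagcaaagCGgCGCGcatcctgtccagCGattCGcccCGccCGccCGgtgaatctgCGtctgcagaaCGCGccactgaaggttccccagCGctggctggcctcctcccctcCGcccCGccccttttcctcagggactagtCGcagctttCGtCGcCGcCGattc
EED, chr11:86244503-86244752, plus strand: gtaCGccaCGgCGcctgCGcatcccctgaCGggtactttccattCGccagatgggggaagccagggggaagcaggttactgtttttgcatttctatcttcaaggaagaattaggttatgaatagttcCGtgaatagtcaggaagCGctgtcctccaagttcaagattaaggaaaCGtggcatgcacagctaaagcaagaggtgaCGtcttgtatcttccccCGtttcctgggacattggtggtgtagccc
KMT2C, chr7:152436004-152436253, minus strand: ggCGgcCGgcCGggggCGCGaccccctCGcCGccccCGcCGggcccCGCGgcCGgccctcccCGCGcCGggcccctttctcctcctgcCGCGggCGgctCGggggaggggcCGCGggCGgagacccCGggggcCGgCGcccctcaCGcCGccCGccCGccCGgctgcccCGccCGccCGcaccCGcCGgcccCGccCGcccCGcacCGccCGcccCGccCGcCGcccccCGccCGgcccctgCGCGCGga
KMT2D, chr12:49060795-49061044, minus strand: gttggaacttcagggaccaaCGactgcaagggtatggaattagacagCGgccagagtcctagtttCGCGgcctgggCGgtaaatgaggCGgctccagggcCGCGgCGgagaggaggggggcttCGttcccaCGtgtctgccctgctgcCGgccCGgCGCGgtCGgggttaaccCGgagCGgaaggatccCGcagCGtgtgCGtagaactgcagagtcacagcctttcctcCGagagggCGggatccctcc
EZH2, chr7:148884292-148884541, minus strand: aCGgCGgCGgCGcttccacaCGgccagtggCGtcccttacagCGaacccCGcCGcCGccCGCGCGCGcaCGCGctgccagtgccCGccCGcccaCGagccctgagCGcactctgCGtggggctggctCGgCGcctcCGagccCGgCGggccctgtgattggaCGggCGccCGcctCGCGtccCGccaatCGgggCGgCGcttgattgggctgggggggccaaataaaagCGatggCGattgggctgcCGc

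The 9 promoters ranged from 11 CpG dinucleotides at EED to 48 at KMT2C, against a median of 17 over 15842 RefSeq protein-coding promoters of the same length (quartiles 6 and 26). EED was the only one of the 9 below that median. Motifs were searched on both strands. The full cAMP response element TGACGTCA, the site of the factor CREB after which CREBBP was named, was in none of the 9 and in 2.32% of all promoters. Its shorter form TGACG was found at 2 places before EED and at 1 place each before KMT2A and SUZ12, and in 25.6% of all promoters. CCAAT was at 4 places before EZH2 and at 1 place each before EED and SUZ12, and in 34.5% of all promoters, and the GC box GGGCGG was in all but EED of the 9 and in 56.0% of all promoters. TTCCGG was at 1 place before KMT2A (19.3% of all promoters), and of 3 forms of the E2F site, TTTGGCGC (held by 0.732% of all promoters) and TTTCGCGC (0.701%) were in none of the 9, and TTTCCCGC (1.87%) was at 1 place before SUZ12.

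All 10 genes had a promoter peak in all 6 libraries, and these were high peaks: the highest peak within 1 kb of a start stood between percentile 82.3 and 99.95 of its list. Peaks at 7 genes stood higher in each CREBBP-KO library than in each WT library, with 0 lower. This was the case at 45.0% of the 12147 promoters with a peak in all 6 libraries, with 7.71% lower. With 3 libraries against 3, the smallest p of the exact permutation test is 0.1, so no percentile could pass 0.05 alone. The fold was greater in CREBBP-KO at most promoters, with a median ratio of CREBBP-KO to WT means of 1.23 over all 12147 promoters and of 1.47 over the 10 genes. For a test that sets each gene against all others, folds were ranked within a library among the 12147 promoters, and the normal scores of the ranks were fitted with limma. The shift, CREBBP-KO minus WT, is in SD units of that score. Of the 10 genes, 3 rose (SETD1A, SETD1B and EED) and 0 fell, against 14.5% higher and 14.1% lower of all promoters. The median shift was 0.43 over the 10 genes and 0.01 over all promoters.

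**Figure D1:**
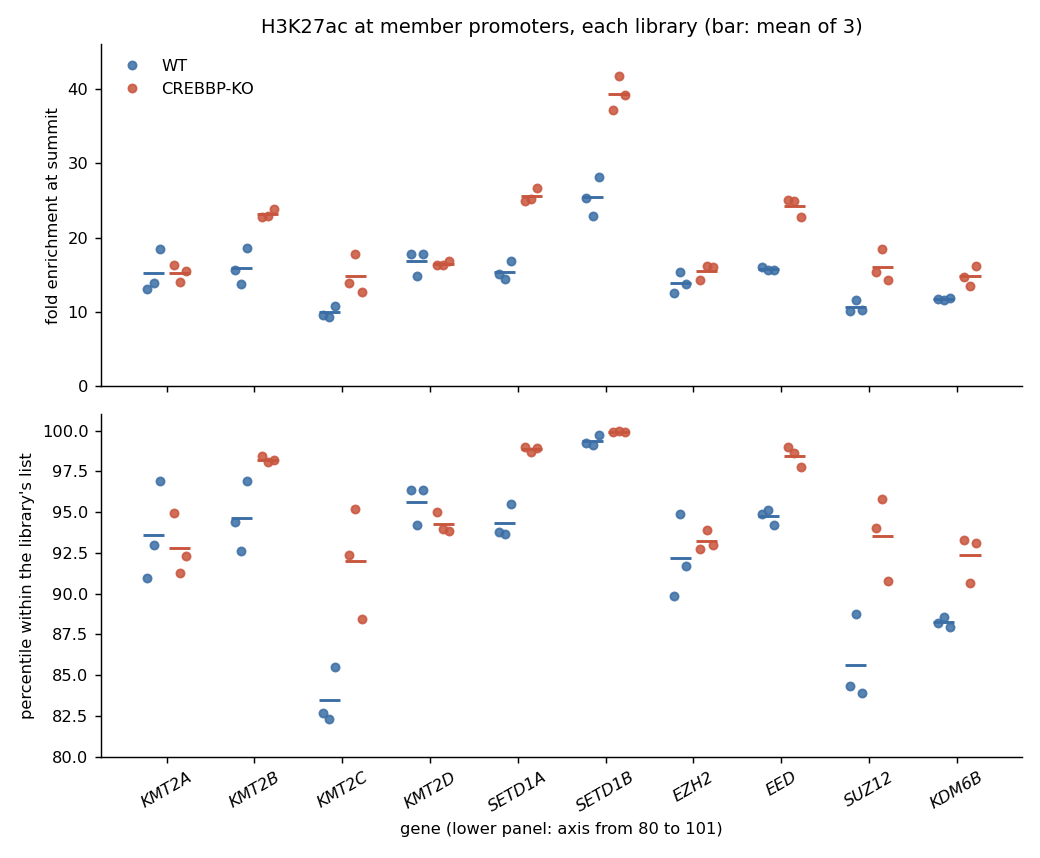
H3K27ac at the highest promoter peak of the 10 genes, as fold enrichment (upper panel) and as percentile within the library's list (lower panel, axis starting at 80). Points are libraries, blue for WT and red for CREBBP-KO, and bars are means of 3; the red points lie above the blue ones at 7 genes, and overlap them at KMT2A, KMT2D and EZH2.

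SETD1A and SETD1B, the catalytic subunits of the SET1 complexes, showed the largest shifts. The SETD1A promoter peak, in chr16:30956558-30959334 over exons 1 to 3, had folds of 15.04, 14.4 and 16.8 in WT and of 24.9, 25.2 and 26.7 in CREBBP-KO. Its summit lay 48 to 118 bases downstream of the start in all 6 libraries. The lowest CREBBP-KO value thus stood well above the highest WT value, and the percentile was 94.3 ± 1.02 in WT and 98.9 ± 0.155 in CREBBP-KO (SD, n = 3 each). The promoter shift of SETD1A was 0.75 ± 0.18 (SE; adjusted p = 0.00547), above 93.0% of all promoters. The SETD1B peak had folds of 25.4, 22.9 and 28.1 in WT and of 37.2, 41.7 and 39.2 in CREBBP-KO, the highest of the 10 genes in each library. It lay in chr12:121793267-121807937, an interval of 14.7 kb that also held the promoter of RHOF, a gene on the other strand. The start of the noncoding gene LINC01089 lay in this interval or within 1 kb of it. The highest summit was 2719 to 3166 bases upstream of the SETD1B start. These values therefore cannot be assigned to SETD1B apart from RHOF or LINC01089. The shift was 0.65 ± 0.17 (adjusted p = 0.0111), and without CREBBP-KO 2 it was 0.58 with an adjusted p of 0.0503. Peaks covered more of this interval in CREBBP-KO, at 14.1, 14.5 and 14.5 kb against 13.9, 13.0 and 13.8 kb in WT (exact permutation test, p = 0.1).

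KMT2A and KMT2B, the MLL proteins whose complexes contain menin, had shifts of opposite sign. The KMT2B promoter peak, in chr19:35715613-35719862 over exons 1 to 3, had folds of 15.6, 13.7 and 18.5 in WT and of 22.7, 22.9 and 23.9 in CREBBP-KO. No values overlapped, and the shift of 0.44 ± 0.19 did not pass the test among promoters (adjusted p = 0.0970; 0.0472 without WT 3). KMT2A, in chr11:118435052-118443650 over exon 1, had folds of 13.1, 13.9 and 18.5 in WT and of 16.3, 13.998 and 15.4 in CREBBP-KO. These ranges overlapped, and a fold ratio of 1.00, below the median ratio of all promoters, went with a shift of -0.44 ± 0.21 (adjusted p = 0.127). The shifts of KMT2A and KMT2B were not tested against each other.

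KMT2C and KMT2D, the paralogues that act at enhancers, also had shifts of opposite sign. The KMT2C peak, in chr7:152431929-152438477 over exon 1, was the lowest of the 10 in WT, with folds of 9.61, 9.37 and 10.8. It had folds of 13.9, 17.7 and 12.7 in CREBBP-KO, all above WT, and its shift was 0.43 ± 0.20 (adjusted p = 0.130; 0.0484 without CREBBP-KO 3). The highest summit was 916 to 948 bases upstream of the start in the WT libraries and in CREBBP-KO 3, and 234 to 283 bases downstream in the other CREBBP-KO libraries. Parts of KMT2C have near-identical copies elsewhere in the genome, and reads from such copies could be placed at either. KMT2D, in chr12:49055194-49061786 over exons 1 and 2, had folds of 17.8, 14.8 and 17.8 in WT and of 16.3, 16.3 and 16.9 in CREBBP-KO. It was the only one of the 10 with a lower mean fold in CREBBP-KO (16.8 ± 1.68 against 16.5 ± 0.330, SD, n = 3 each), with overlapping ranges. The shift of -0.50 ± 0.18 stood at the threshold (adjusted p = 0.050001), at percentile 16.4 of the shifts of all promoters. It passed in 6 of 14 alternative settings, with an adjusted p of 0.0469 to 0.150.

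The 3 core genes of PRC2 did not share 1 pattern. EED, which binds trimethylated lysine 27 and activates the complex, had folds of 16.04, 15.6 and 15.6 in WT and of 25.1, 24.9 and 22.7 in CREBBP-KO at chr11:86243947-86247803 over exon 1. The WT values lay close together and below all CREBBP-KO values, and the shift of 0.55 ± 0.19 passed the test (adjusted p = 0.0359). The call was lost when WT 1, WT 2, WT 3, CREBBP-KO 1 or CREBBP-KO 2 was left out (adjusted p between 0.0558 and 0.125). SUZ12, the scaffold subunit, had folds of 10.2, 11.7 and 10.3 in WT and of 15.4, 18.5 and 14.3 in CREBBP-KO at chr17:31936175-31938962 over exon 1. These did not overlap, and the shift was 0.45 ± 0.21 (adjusted p = 0.115). EZH2, the methyltransferase, had folds of 12.5, 15.4 and 13.8 in WT and of 14.2, 16.2 and 16.03 in CREBBP-KO at chr7:148881772-148885672 over exon 1. Its ranges overlapped, with a fold ratio of 1.11 and a shift of -0.22 ± 0.19 (adjusted p = 0.430), whose sign reversed when peaks were ranked by -log10 p. KDM6B, which removes the PRC2 mark, had folds of 11.7, 11.6 and 11.8 in WT and of 14.7, 13.5 and 16.2 in CREBBP-KO. Its groups did not overlap either, but its fold ratio of 1.26 was near the median of all promoters, and the shift was 0.07 ± 0.18 (adjusted p = 0.798), again with the reverse sign under the other ranking. This peak, in chr17:7841227-7846027 over exons 3 to 6, lay at an alternative start, 9125 to 9623 bases downstream of the canonical one. The interval at the canonical start, chr17:7833903-7837589, had mean folds of 6.999 in WT and 9.53 in CREBBP-KO.

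In WT the order of promoter percentiles ran from SETD1B over KMT2D, EED, KMT2B, SETD1A, KMT2A, EZH2, KDM6B and SUZ12 to KMT2C. The libraries' ranges overlapped between all neighbours in that order except SETD1B and KMT2D, and EZH2 and KDM6B. In CREBBP-KO it ran from SETD1B over SETD1A, EED, KMT2B, KMT2D, SUZ12, EZH2, KMT2A and KDM6B to KMT2C, with gaps only after SETD1B and after KMT2B. Thus SETD1A, EED and KMT2B stood apart from the 6 lower genes in CREBBP-KO, whereas in WT they overlapped with KMT2D and KMT2A.

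The result depended on which peak measure was ranked. With ranks of the deposited -log10 p in place of the fold, 0 of the 10 promoters passed, against 5.39% higher and 5.86% lower of all promoters. The shifts were 0.22 at SETD1A (adjusted p = 0.422), 0.16 at SETD1B (adjusted p = 0.556) and 0.29 at EED (adjusted p = 0.292). At SETD1A the deposited -log10 q was 141, 144 and 160 in WT and 161, 173 and 215 in CREBBP-KO, without overlap. The value itself was thus higher while its rank among promoters did not pass. At EED it was 128, 136 and 119 in WT and 163, 159 and 166 in CREBBP-KO, also without overlap. At SETD1B the values overlapped, at 249, 221 and 236 in WT and 245, 302 and 317 in CREBBP-KO. The share of all promoters without overlap in this value was not examined, and the depth behind each list is unknown. The reason for the difference between the measures was not tested.

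Whole intervals were fitted in the same way across the genome. An interval was tested if it had a peak in all 6 libraries and a fold of at least 5 in all 3 libraries of a genotype, which 31 of the 117 did, so that an interval could enter through the genotype in which it was high. Of the called intervals, 4 of the higher ones entered through CREBBP-KO alone and both lower ones through WT alone, which favours those directions, and the values of these 6 without the fold filter are given beside them. Of the 31, 11 were higher in CREBBP-KO and 2 lower, against 18.6% higher and 18.7% lower of the 34864 intervals tested. The promoter intervals of SETD1A, SETD1B, EED, SUZ12, KMT2B and KMT2C were higher, with shifts of 0.77, 0.70, 0.60, 0.54, 0.50 and 0.54 (adjusted p from 0.000826 to 0.0282). Those of KMT2A, KMT2D, EZH2 and KDM6B had shifts of -0.20, -0.27, -0.02 and 0.23 and did not pass. Of the 11570 promoter intervals tested genome-wide, 25.9% were higher and 8.98% lower, with a median shift of 0.20, against a median of 0.52 for the 10 genes. The calls at KMT2B, KMT2C and SUZ12 were lost without the trend in the variance (adjusted p = 0.0752, 0.0676 and 0.0580) and when libraries were left out (0.0503 to 0.183): any but WT 3 at KMT2B, WT 1, WT 2, CREBBP-KO 1 or CREBBP-KO 2 at KMT2C, and WT 1, CREBBP-KO 1 or CREBBP-KO 2 at SUZ12. Ranked by -log10 p, 3 of the 31 were higher and 1 lower, against 12.4% and 12.9% of all intervals, and none of the 3 was a main promoter.

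**Figure D2:**
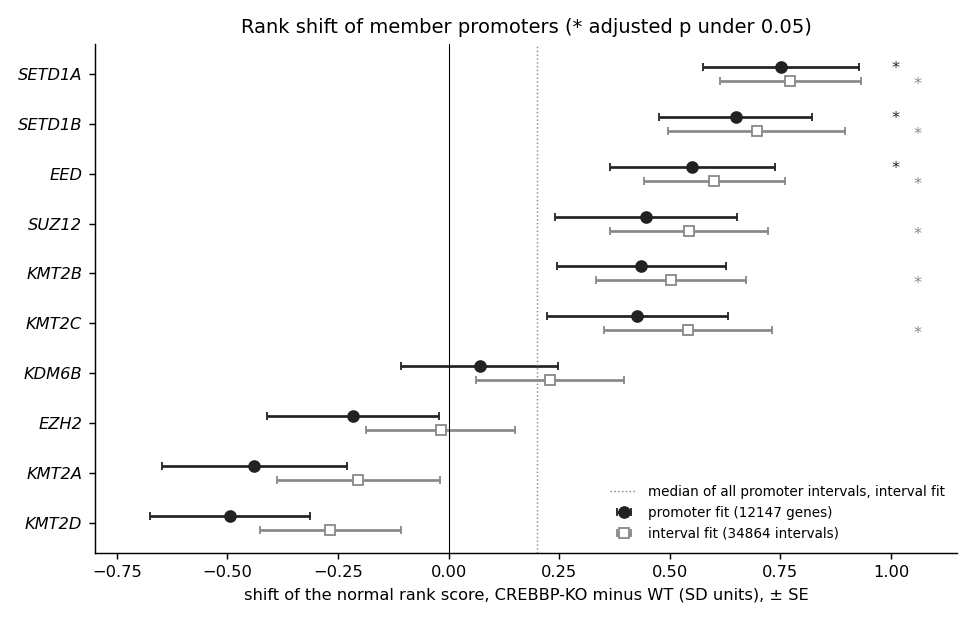
Shift of the normal rank score (CREBBP-KO minus WT, in SD units) with its SE for the 10 genes, in the fit of 12147 promoters (filled circles) and of 34864 intervals (open squares); stars mark an adjusted p under 0.05 and the dotted line the median of all promoter intervals in the interval fit. SETD1A is highest at 0.75, and KMT2D, KMT2A and EZH2 lie to the left of 0 in both fits.

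Away from the promoters of the 10 genes, 10 intervals were tested, of which 3 were higher and 2 lower, against 14.9% and 23.6% of the 23294 intervals away from protein-coding starts. Both lower intervals lay within KMT2C and were tested through their WT values alone. At chr7:152311765-152315091, 123 kb into the gene over exon 5, the fold was 7.15, 6.29 and 6.81 in WT and 3.59, 6.80 and 4.18 in CREBBP-KO. CREBBP-KO 2 thus stood among the WT libraries, and the shift was -1.05 ± 0.34 (adjusted p = 0.0205; -0.75 and 0.0411 without the fold filter). It was lost without WT 1, WT 3, CREBBP-KO 1 or CREBBP-KO 3 (adjusted p from 0.0632 to 0.112), and held under the ranking by -log10 p. At chr7:152199764-152203227, 235 kb into the gene over exon 26, the fold was 7.57, 7.08 and 7.98 in WT and 5.59, 4.63 and 7.16 in CREBBP-KO. Here too the groups overlapped, with CREBBP-KO 3 above WT 2, and the shift of -0.78 ± 0.29 (adjusted p = 0.0396) was lost without any fold filter (0.0833), ranked by -log10 p (0.118), and without any library but CREBBP-KO 3 (0.0607 to 0.204). The KMT2C promoter and these intervals had shifts of opposite sign, a difference that was not tested.

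SUZ12 had 2 of the 3 higher intervals. At chr17:31919247-31921407, 16.7 kb upstream of the start, the fold was 7.36, 5.37 and 4.54 in WT and 9.42, 10.3 and 11.2 in CREBBP-KO. Every CREBBP-KO library exceeded every WT library, and the shift was 1.18 ± 0.28 (adjusted p = 0.00227). At chr17:31972937-31975817, 37.4 kb downstream of the start over exons 6 and 7, the fold was 4.92, 4.14 and 5.47 in WT and 7.08, 8.94 and 8.87 in CREBBP-KO, again without overlap (shift 1.17 ± 0.28, adjusted p = 0.00298). Both intervals were tested through their CREBBP-KO values alone, and without the fold filter the shifts were 0.80 (adjusted p = 0.00395) and 0.79 (adjusted p = 0.00849). Both calls held under the 13 alternative settings in which the intervals were tested, the ranking by -log10 p included. SUZ12 has a partial pseudogene copy on the same chromosome, SUZ12P1, and reads shared with it were not examined. The third lay in KMT2D at chr12:49049150-49050684 over exons 12 and 13, where the fold was 4.13, 3.29 and 4.46 in WT and 6.51, 6.997 and 5.18 in CREBBP-KO. The values did not overlap (shift 1.02 ± 0.32, adjusted p = 0.0164), but the interval was tested through CREBBP-KO alone. Without the fold filter the shift was 0.84 (adjusted p = 0.0277), and the call was lost without WT 2, CREBBP-KO 1 or CREBBP-KO 2 (adjusted p from 0.0673 to 0.0965) or ranked by -log10 p (0.144).

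The sequence of 200 bases around the highest summit is given for the KMT2C and KMT2D intervals, whose directions differed (hg38, plus strand), with 5 motifs, searched on both strands, in capitals: TGANTCA, the AP-1 site, and the letters TGACG and CCAAT and GGGCGG and TTCCGG, as above.
KMT2C exon 5 interval, chr7:152313961-152314160: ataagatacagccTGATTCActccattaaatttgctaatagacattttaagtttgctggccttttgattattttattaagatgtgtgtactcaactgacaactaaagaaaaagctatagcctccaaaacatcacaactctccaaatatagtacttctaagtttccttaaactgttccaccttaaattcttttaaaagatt
KMT2C exon 26 interval, chr7:152202438-152202637: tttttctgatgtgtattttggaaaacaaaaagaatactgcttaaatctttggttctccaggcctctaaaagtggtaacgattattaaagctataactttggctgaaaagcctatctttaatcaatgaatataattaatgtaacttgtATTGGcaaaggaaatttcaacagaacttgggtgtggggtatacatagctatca
KMT2D exon 12 interval, chr12:49049849-49050048: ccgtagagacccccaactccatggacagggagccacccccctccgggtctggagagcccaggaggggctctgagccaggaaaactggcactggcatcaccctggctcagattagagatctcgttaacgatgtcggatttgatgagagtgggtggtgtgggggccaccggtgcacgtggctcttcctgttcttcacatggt

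The KMT2C exon 5 window held 1 AP-1 match, found in 6.44% of the 23277 windows of this kind, and the exon 26 window 1 CCAAT, found in 22.4%. The KMT2D window held none of the 5 motifs, of which TGACG was in 5.75%, GGGCGG in 5.48% and TTCCGG in 2.37% of windows.

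**Figure D3:**
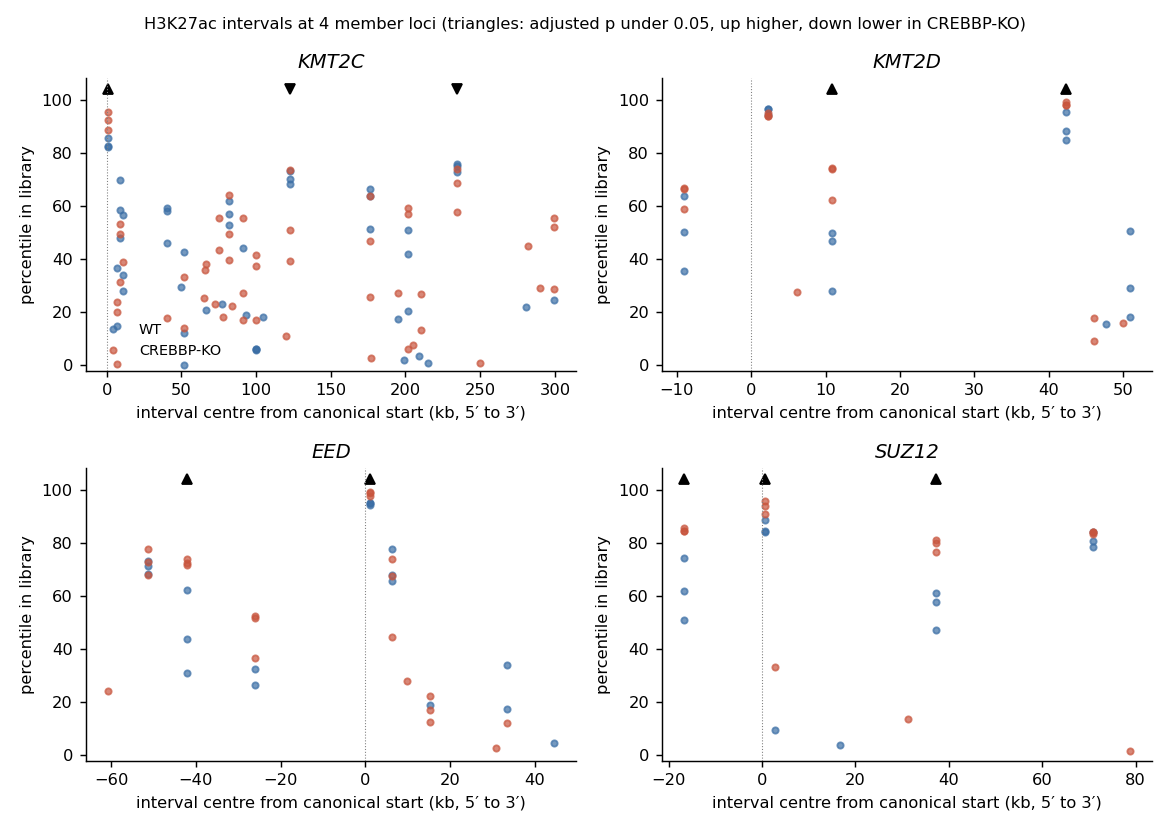
Percentile of each interval in each library (blue for WT, red for CREBBP-KO) against the distance of its centre from the canonical start in kb, for KMT2C, KMT2D, EED and SUZ12; triangles at the top mark intervals past an adjusted p of 0.05, pointing up for higher and down for lower in CREBBP-KO. At KMT2C the promoter is marked up and 2 intervals in the gene are marked down, whereas all marked intervals at KMT2D, EED and SUZ12 point up.

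Other starts within these loci gave 2 further called intervals, both higher. At the 3′ end of KMT2D, chr12:49016208-49020680 overlapped exon 55 and the promoter of PRKAG1, which encodes a regulatory subunit of AMP-activated protein kinase. Its folds were 16.5, 10.1 and 11.9 in WT and 24.95, 22.6 and 22.9 in CREBBP-KO. The groups were far apart (shift 0.99 ± 0.19, adjusted p = 0.000534), while the promoter of KMT2D itself had overlapping values. Ranked by -log10 p, this shift was 0.36 (adjusted p = 0.0730). Of 9 tested intervals at promoters of neighbouring genes, 1 passed, the one at PRKAG1. Of all promoter intervals tested genome-wide, 25.9% were higher and 8.98% lower. The others of the 9 held the promoters of IGFLR1, PSENEN, U2AF1L4, LIN37, HSPB6, PROSER3, FBXL19, ORAI3, LRRC37B, CYB5D1, NAA38 and TMEM88. Intervals at RHEBL1 and HSD3B7 were not tested. At EED, a minor start 42.1 kb upstream of the canonical one lay at chr11:86202118-86203202, named here after its values were seen. Its folds were 3.93, 5.43 and 3.52 in WT and 6.53, 6.56 and 6.69 in CREBBP-KO, without overlap (shift 1.01 ± 0.31, adjusted p = 0.0125). It too was tested through CREBBP-KO alone, and without the fold filter the shift was 0.79 (adjusted p = 0.0253). This call held in the 13 alternative settings in which it was tested, the ranking by -log10 p included (shift 1.00, adjusted p = 0.0102).

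Other intervals, chosen as the highest of their locus outside its own promoters, did not pass the test or were not tested. At KMT2B, chr19:35744521-35746856 at the promoters of PSENEN and U2AF1L4 had mean folds of 18.3 in WT and 21.1 in CREBBP-KO (shift -0.01 ± 0.17). In intron 1 of KMT2A, chr11:118446822-118449948 had folds of 7.90, 8.17 and 4.98 in WT and 5.66, 6.86 and 5.54 in CREBBP-KO (shift -0.39 ± 0.31, adjusted p = 0.330). Within SETD1B, chr12:121810683-121813970 over exon 6 had mean folds of 5.89 and 7.27 (shift 0.38 ± 0.28). Upstream of EED, chr11:86192768-86194308 had mean folds of 6.80 and 6.75 (shift -0.16 ± 0.27). Downstream of SUZ12 and KDM6B, chr17:32006786-32009028 at LRRC37B and chr17:7855100-7859404 at CYB5D1, NAA38 and TMEM88 had shifts of 0.01 ± 0.20 and 0.13 ± 0.20. In intron 3 of EZH2, chr7:148839177-148840984 had folds of 5.06, 4.02 and 4.02 in WT and 7.10, 3.38 and 3.88 in CREBBP-KO and was not tested.

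Peak numbers at the loci overlapped between the genotypes. The libraries had 75, 72 and 70 peaks at the 10 loci in WT and 76, 73 and 72 in CREBBP-KO (exact permutation test, p = 0.6), although the CREBBP-KO lists were longer. With all lists shortened to the 86163 highest peaks, the mean was 7.33 peaks lower in CREBBP-KO (exact permutation test, p = 0.1). This cut removes more peaks from the longer CREBBP-KO lists than from the WT lists, and leaves every list with the same total. The reason for the lower number was not tested. EZH2 was the only locus without overlap, with 10, 9 and 9 peaks in WT and 7 in each CREBBP-KO library (exact permutation test, p = 0.1, the smallest possible). Of its 13 intervals, 3 had a peak in all 6 libraries. The intervals with more WT than CREBBP-KO peaks lay in introns and, for 1, downstream of the gene. Where a CREBBP-KO library had a peak in such an interval, its percentile could lie below or above the WT values. At chr7:148856410-148857219 in intron 1, the percentile was 56.8, 49.5 and 31.9 in WT and 8.25 in the 1 CREBBP-KO library with a peak. At chr7:148847585-148849797, also in intron 1, it was 33.5, 20.4 and 5.86 in WT and 36.0 in the 1 CREBBP-KO library with a peak. The share of loci without overlap in peak number over all genes was not examined. KMT2C, the longest of the 10 genes at 302 kb, had 18, 15 and 17 peaks in WT and 15, 20 and 21 in CREBBP-KO, and 19 of its 37 intervals were found in 1 library only. Of all 117 intervals, 44 were present in all 6 libraries and 44 in 1. At 1 interval, chr12:49009187-49010584 downstream of KMT2D, the 3 WT lists had a peak (folds of 3.33, 4.35 and 3.08) and the CREBBP-KO lists had none, which was the case at 1.08% of all intervals. The reverse was found at 0, against 2.66% of all intervals.

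Genes of the same complexes were taken from 6 lists of 64 genes, of which 62 had a promoter peak in all 6 libraries; EZHIP had none and CBX7 lacked one in 1 library. Of the 62, 10 were higher and 16 lower (14.5% and 14.1% of all promoters), with a median shift of -0.03. Of the 4 subunits shared by all COMPASS complexes, RBBP5 rose: its folds were 14.3, 13.1 and 15.3 in WT and 24.7, 28.4 and 31.5 in CREBBP-KO, and its shift of 1.19 ± 0.19 (adjusted p = 0.000472) was larger than that of any of the 10 genes. WDR5, ASH2L and DPY30 had shifts of -0.17, -0.32 and 0.53 that did not pass. The 12 subunits specific to some of the complexes had 1 higher and 5 lower, although their median was 0.22. TASP1, the protease that cleaves KMT2A and KMT2B, rose (0.85 ± 0.21). HCFC1, a cofactor of the SET1 and KMT2A complexes, had folds of 27.2, 22.3 and 25.7 in WT and of 18.5, 18.8 and 22.9 in CREBBP-KO. HCFC1 fell by 1.07 on the rank score, with overlapping folds. PSIP1, which tethers KMT2A to chromatin, WDR82 of the SET1 complexes, and PAXIP1 and PAGR1 of the KMT2C and KMT2D complexes also fell on the rank score, with shifts of -0.87, -0.59, -0.76 and -0.89. Of these, PSIP1 alone had folds that did not overlap, and the mean fold of WDR82 was 27.8 in WT and 28.0 in CREBBP-KO. Over the lists, the folds of the genotypes did not overlap at any of the 10 genes called higher, and overlapped at 10 of the 16 called lower. Over all 12147 promoters the median ratio of CREBBP-KO to WT folds was 1.23. The overlap of folds by direction of the call is not given here for all promoters. The part of this ratio in the overlap at the list genes was not tested.

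Among 15 other methyltransferases 2 rose and 2 fell, with a median of 0.20. EHMT2 and KMT5C rose by 0.62 and 0.62, and EHMT1, the partner of EHMT2 in methylating lysine 9, and NSD1, which methylates lysine 36, had shifts of -0.60 and -0.97. Of the 8 PRC2 partners tested, 1 rose and 3 fell, with a median of -0.36. Of the PRC2 core, EED rose, and EZH2 and SUZ12 did not pass (shifts of -0.22 and 0.45). Partners and core were not tested against each other. The histone-binding subunit RBBP7 rose (0.59 ± 0.20). EZH1, the paralogue of EZH2, had folds of 17.1, 15.3 and 18.4 in WT and 15.8, 13.7 and 16.03 in CREBBP-KO. Its shift was -0.71 ± 0.19 (adjusted p = 0.0104), and the Polycomb-like proteins PHF1 and MTF2 fell with it, with shifts of -0.87 and -0.71.

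Of 19 genes of PRC1, the complex that ubiquitinates histone H2A, 4 rose and 6 fell. The catalytic paralogues had shifts of opposite sign, with values of 0.60 ± 0.18 at RNF2 (adjusted p = 0.0185) and -0.80 ± 0.22 at RING1 (adjusted p = 0.0137), a difference that was not tested. PCGF2, PCGF6 and YAF2 rose by 0.57, 0.54 and 0.55, and PCGF5, CBX6, PHC1, KDM2B and BCOR had shifts of -0.56, -0.65, -0.85, -0.69 and -1.24. BCOR, a subunit of the variant complex that also holds KDM2B, had folds of 22.7, 19.7 and 20.6 in WT and 13.2, 16.003 and 16.7 in CREBBP-KO, the largest fall of the 62. Of the 5 demethylases of lysine 4 or lysine 27, KDM1A rose (0.72 ± 0.18, adjusted p = 0.00919), and KDM5A, KDM5B, KDM5C and KDM6A did not pass. When each library was left out in turn, 14 of the 26 calls held throughout, and those of EHMT1, EHMT2, EZH1, KMT5C, PCGF2, PCGF5, PCGF6, RBBP7, RING1, RNF2, WDR82 and YAF2 were lost without at least 1 library. Ranked by -log10 p, 6 of the 26 calls held: RNF2 and KDM1A higher, and PAGR1, PHF1, PHC1 and BCOR lower.

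**Figure D4:**
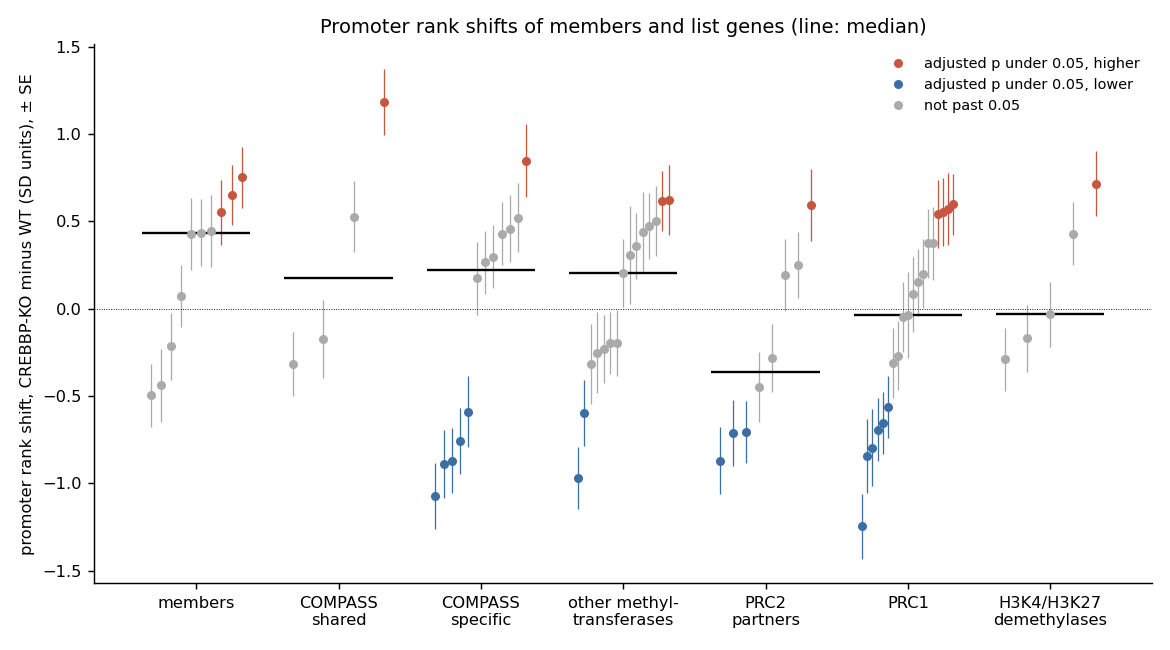
Promoter rank shift (CREBBP-KO minus WT, in SD units, with its SE) of the 10 genes and of the genes in 6 lists, each point a gene in order of its shift, red for higher and blue for lower at an adjusted p under 0.05, grey otherwise; black lines are medians. The 10 genes have the highest median, 0.43, and no blue point, and PRC2 partners the lowest, -0.36.

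By Euclidean distance over the 6 promoter scores, the list genes most like SETD1A were RBBP5 (0.642), BOD1 (0.829) and SETD2 (0.897), of 62 compared; BOD1 is a subunit of a SET1 complex and SETD2 methylates lysine 36. Promoter CpG content went weakly with the shift over all genes: in the lowest quartile of the 9831 tested promoters with a RefSeq sequence the median shift was -0.04, and 12.5% were higher and 17.8% lower. In the highest quartile it was 0.06, with 15.9% higher and 12.04% lower. EED, with 11 CpG dinucleotides and a shift of 0.55, lay in the lowest quartile, and 5 of the 9 genes lay in the highest: KMT2A and EZH2, with 31 and 38 and shifts of -0.44 and -0.22, and SUZ12, KMT2B and KMT2C, with 34, 40 and 48 and shifts of 0.45, 0.44 and 0.43.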

How the data were processed

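H3K27ac ChIP-seq of 3 WT and 3 CREBBP-KO libraries was analysed, and the 2 input libraries were left out. Reads were aligned to hg38 by the authors through nf-core/chipseq (the submitters' processing notes name BWA), and MACS2 called narrow peaks, 1 list per library. Whether the lists precede the downsampling of reads in the methods, and which input was the control, is not given in the sources used here. The deposited values of each peak are a fold (a linear ratio over local background) and -log10 p and q-values, with the smallest -log10 q at 1.30 in each list. With no counts deposited, the depth behind each list is unknown and no counting error could be given. The authors' summit position per peak was also used.

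Overlapping or touching peaks from the 6 lists were merged into intervals, and the highest fold per library was taken. Starts were those of protein-coding transcripts in GENCODE release 44. Ranks of fold within a library were turned into normal scores and fitted with limma 3.58.1 (lmFit, and eBayes with a trend; R 4.3.3), CREBBP-KO minus WT, two-sided, with Benjamini-Hochberg adjustment over all features and a threshold of 0.05. Intervals needed a fold of at least 5 in all 3 libraries of a genotype, after the methods, and here also a peak in all 6; promoters needed a peak in all 6. Exact permutation tests of percentiles and peak numbers were two-sided. Both scripts were tested on simulated data. For the limma fits the planted shifts were larger than any reported here, so shifts of the reported size were not covered. The library titles number 3 replicates per genotype and do not say whether these came from separate cultures or chromatin preparations. The p-values therefore measure the spread between these libraries. Scripts used bedtools 2.31.1 and Python 3.11.15 with scipy 1.17.1, pandas 2.3.3 and numpy 2.4.6.

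The genes, the lists of related genes and markers, and the tests were chosen with earlier results of these data known. Named were the 10 genes with their promoter interval, other intervals past the threshold (at most 3 per locus), the highest other interval, neighbouring genes at their promoters, and list genes past the threshold. Alternatives to the ranking, the fold filter, the -log10 q minimum, list length, peak matching, promoter distance, start annotation and model were tried, as was leaving out single libraries. Results at some items are not reported here.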

Additional observations from a re-analysis of the deposited data

How the results depend on the processing

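Ranked by -log10 p, 1367 promoters had a rank shift in place of 3472, 0 of the 10 promoters were called higher, and 3 intervals at the 10 loci were higher and 1 lower in place of 11 and 2. With a fold of at least 10, 6722 intervals had a rank shift, with 7 higher and 0 lower at the loci. In both of these settings the cause was not tested, apart from the smaller number of intervals that pass a higher fold. The number of lower intervals at the loci was 1 with windows around summits and 1 with a -log10 q of at least 5. The number of the 10 promoters called lower rose from 0 to 1, KMT2D, without the trend, with 500 bp either side of a start, with the start of the gene record, with a -log10 q of at least 5 and with lists of equal length. The difference in peaks at the loci, 1.33, reversed to -3 with a -log10 q of at least 5 and to -7.33 with lists of equal length. The latter setting removes more peaks from the longer CREBBP-KO lists and leaves all lists with the same total. The reason for either reversal was not tested. With each library left out in turn, intervals at the loci called higher ranged from 7 to 12 and lower from 0 to 3, and promoters called higher from 1 to 4 and lower from 0 to 1.

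Signs reversed at values near 0. Ranked by -log10 p, interval shifts became 0.082 at EZH2 (chr7:148881772-148885672), 0.092 at EED (chr11:86192768-86194308) and -0.12 at KDM6B (chr17:7841227-7846027), promoter shifts 0.043 at EZH2 and -0.22 at KDM6B, and percentile differences 0.29 at KMT2A and -0.16 at KDM6B. The SUZ12 interval chr17:32006786-32009028 was at -0.0050 with windows around summits, and the EZH2 percentile difference at -0.039 with lists of equal length. With a library left out, interval shifts ranged from -0.39 to 0.014 upstream of EED, -0.13 to 0.10 at EZH2, -0.35 to 0.0037 at KMT2A, -0.17 to 0.080 at KMT2B (chr19:35744521-35746856), -0.18 to 0.071 downstream of SETD1A and -0.036 to 0.083 downstream of SUZ12. Percentile differences ranged from -0.094 to 2.41 at EZH2 and from -2.10 to 0.85 at KMT2A.

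The replicate numbers were fitted as a block as an alternative. Deviations of same-numbered libraries correlated at 0.0108 to 0.0284, which does not settle whether the replicate numbers stand for a pairing. Each library correlated best with its own number among promoters, and each but WT 1 among intervals, a hint from the data and not from the design. With the block, 13081 intervals and 3430 promoters had a rank shift, the counts at the 10 genes remained 11, 2, 3 and 0, and PCGF6 and YAF2 no longer passed. The lists hold no counts, so how far depth limits these statements could not be computed. A peak missing from a list may lie just under the threshold of the caller.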
